A study of Homo sapiens with 8 samples.

Results

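The cell cycle, replication and mitotic genes described here were chosen by symbol. A member is an array probe whose gene symbol is CCN with a letter from A to K and a number, or starts with CDK, CDC, E2F, MCM, ORC or KIF directly followed by a number, or is CENP with a letter. The rule found 141 probes of 106 genes among the 16060 probes of the deposited value table that could be evaluated, of which 11846 probes (73.8%) carried a gene symbol, for 8756 genes. The members were 12 probes of 8 cyclin genes, 28 probes of 21 CDK genes, 35 probes of 24 CDC genes, 11 probes of 7 E2F genes, 12 probes of 10 MCM genes, 7 probes of 6 ORC genes, 20 probes of 16 KIF genes and 16 probes of 14 CENP genes. For 93 genes the symbol is the family name alone. The other 13 genes only share its first letters, among them CDC42EP2, CDC42EP3, CDC42EP5, CDC42SE1, CDC42SE2, CDC37L1, CDK2AP1, CDK5RAP2 and MCM3AP, and CDC42 itself is a GTPase of cell shape rather than a cell cycle gene.

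KM-H2 is a Hodgkin lymphoma (HL) cell line with a high endogenous level of miR-155. Its cells carried the retroviral vector pMSCV-PIG, which was empty in the EV population and in the miR-155-sp population held a sponge, a transcript with repeated binding sites for miR-155. In each case the GFP+ cells had been sorted. Total RNA (T) and RNA immunoprecipitated through Ago2 (Ago2-IP) came from both populations, and each of the 4 RNAs was labelled once with Cy3 and once with Cy5 on 4 Agilent 44k arrays. The labellings are technical repeats of 1 RNA, so each group holds 1 sample, and no difference below has a replicate check or a p-value. Both populations were transduced and sorted, so untransduced KM-H2 cells were not a group here, and no immunoprecipitation with a control antibody was analysed here. The Hodgkin markers TNFRSF8, CCL17, CD70, FSCN1 and BCL2A1 and the miR-155 host gene MIR155HG were above background in all 8 channels. Of the B-cell genes usually lost in HL, MS4A1 was above background in 1 channel, while CD79A was above background in all 8.

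Cyclins are the regulatory partners of cyclin-dependent kinases (CDKs), and the pairs drive cells from G1 into S phase and on to mitosis. E2F factors, which are held in check by the retinoblastoma protein, switch on many of the genes for these steps. ORC proteins mark replication origins and load the MCM helicase there, CDC25 phosphatases activate CDKs, kinesins (KIF) move along microtubules, and CENP proteins build the centromere and kinetochore. Ago2 holds a microRNA and through it binds messenger RNAs, so RNA with an IP/T ratio above 1 was over-represented in the immunoprecipitate relative to the total RNA of the same cells. The microRNA that the sponge was built to bind is shown first because the comparison between the populations turns on it. It is transcribed from chr21:25573983-25574006 (GRCh38.p14, plus strand, RefSeq), and capitals mark its seed, bases 2 to 8, the part that pairs with target RNAs.
hsa-miR-155-5p: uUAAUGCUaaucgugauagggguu

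The IP/T ratio is given on the log2 scale as the mean of both dye orientations, that is, with the IP in Cy5 and with the IP in Cy3. In EV cells 29 of the 141 member probes (20.6%), in 20 genes, had an IP/T ratio of at least 2, the enrichment limit used in the study, against 15.1% of all 16060 probes. A ratio of 0.5 or less was seen for 13 member probes (9.22%) against 12.9% of all probes. The median log2 IP/T of the members was 0.01, and that of all probes was -0.25. In both dye orientations the ratio was at least 2 for 24 of the 29 probes (12.9% of all probes met this), and 20 of the 29, in 15 genes, stayed at 2 or above in each of 8 other processing settings. In bins of rising mean signal, 5 of 44, 11 of 52 and 13 of 45 members were enriched, a share that was highest among the brightest, where all probes gave 16.0%, 16.2% and 13.3%.

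The families were not alike. E2F had the highest median log2 IP/T in EV cells, 1.65, with 7 of 11 probes (4 of 7 genes) enriched. Cyclins followed at 1.21, with 8 of 12 probes (6 of 8 genes) enriched. The remaining medians were 0.10 for CDC, -0.13 for MCM, -0.16 for CDK, -0.40 for KIF, -0.49 for ORC and -0.51 for CENP. Enriched probes numbered 4 of 35 for CDC, 3 of 28 for CDK, 5 of 20 for KIF, 1 of 12 for MCM, 1 of 16 for CENP and 0 of 7 for ORC. E2F was highest and cyclins next under the main processing and all 12 alternatives tried, in which the E2F median ran from 1.42 to 1.92 and the cyclin median from 1.07 to 1.33. The order of the lower families was less firm: the KIF median was 0.10 over the probes above background in all 8 channels.

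**Figure D1:**
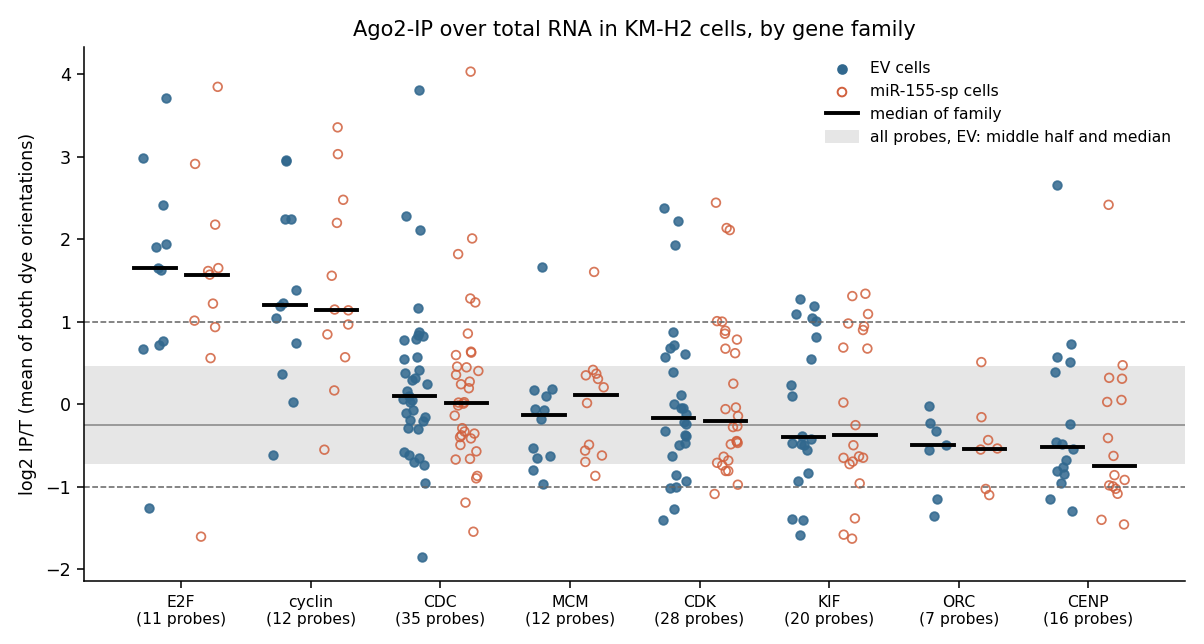
Log2 IP/T of each member probe by gene family, as filled points for EV cells and open points for miR-155-sp cells, with black bars at the family medians, dashed lines at IP/T of 2 and 0.5, and a grey band for the middle of all probes in EV cells. The E2F median is 1.65 in EV and 1.57 in miR-155-sp cells, the CENP median is -0.51 and -0.74, and the median of all probes is -0.25.

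E2F5, a repressor E2F that works with pocket proteins, had the highest ratio of its family. Its probe A_23_P31721 read 8.54 in Cy3 and 8.34 in Cy5 (log2 signal) in EV total RNA and 12.28 and 12.03 in EV Ago2-IP RNA, an IP/T ratio of 13.1. In miR-155-sp cells it read 8.34 and 7.73 in total and 11.94 and 11.83 in Ago2-IP RNA, a ratio of 14.4. The IP values lay above the total values in every labelling of both populations, and among all 16060 probes E2F5 ranked 182 by its EV ratio. E2F3, an activator E2F that promotes S phase entry, read 10.50 and 10.16 in EV total and 13.35 and 13.28 in EV Ago2-IP RNA, and 10.52 and 10.30 against 13.32 and 13.33 in miR-155-sp cells. Its ratios were 7.92 and 7.53, so the RNA stood almost equally high in the immunoprecipitate with and without the sponge.

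E2F7, an atypical E2F that binds DNA without a DP partner and represses, read 9.73 and 9.36 in EV total and 12.26 and 11.65 in EV Ago2-IP RNA, with ratios of 5.32 in the EV and 4.52 in the miR-155-sp population. The repressor E2F6 was measured by 4 probes, with log2 IP/T of 1.94, 1.91, 1.65 and 1.63 in EV and 1.65, 1.62, 1.57 and 1.22 in miR-155-sp cells. All 4 probes of E2F6 were thus enriched in both populations. The repressor E2F4 and the activator E2F1 stood under the limit in EV cells, with 0.77 and 0.67 on the E2F4 probes and 0.72 on the E2F1 probe. E2F2 was the exception: its probe in the table stood at -1.25, with 8.29 and 8.69 in EV total and 7.13 and 7.35 in EV Ago2-IP RNA. With normexp, another background correction, this probe had -0.57 and -0.38. It was not above background in Cy5 in miR-155-sp Ago2-IP RNA. A second E2F2 probe, outside the deposited table and above background in 4 channels only, gave -0.15 and 2.43 in its orientations, which differ in sign. Within the family, in the main processing, the activators thus ran from -1.25 to 2.99 and the repressors from 0.67 to 3.72.

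Among the cyclins, CCNE1, which activates CDK2 at the G1 to S transition, and CCNA2, which acts in S phase and G2, had values far above the limit in all labellings. CCNE1 read 11.74 and 11.88 in EV total against 14.76 and 14.77 in EV Ago2-IP RNA, and 11.76 and 11.83 against 14.70 and 14.96 in miR-155-sp cells, with ratios of 7.74 and 8.18. CCNA2 read 10.61 and 10.63 against 12.79 and 12.94 in EV, and 10.47 and 10.53 against 12.62 and 12.77 in miR-155-sp cells, with ratios of 4.76 and 4.59. For both genes the labellings of 1 RNA lay within 0.3 of each other while IP and total differed by more than 2 on the log2 scale. The mitotic cyclins CCNB1 and CCNB2, partners of CDK1, were enriched less, at 1.38 and 1.05 in the EV and 1.14 and 0.85 in the miR-155-sp population.

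The D cyclins, which carry growth signals to CDK4 and CDK6, split by gene. CCND2 had 1.22, 1.19 and 0.75 on its 3 probes in EV cells, 2 of them past the limit, and CCND3 had 0.36 and 0.03. The G-type cyclins split further. CCNG2, an atypical cyclin tied to cell cycle arrest, read 9.06 and 9.21 in EV total and 11.52 and 11.23 in EV Ago2-IP RNA on the probe above background in all 8 channels (A_23_P110122), a ratio of 4.72. On its dimmer probe (A_24_P80532), whose total RNA was not above background in Cy5, the log2 IP/T was 2.96, and 1.41 and 1.16 with normexp, another background correction. CCNG1, a target of p53, stood on the other side with an EV log2 IP/T of -0.61.

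**Figure D2:**
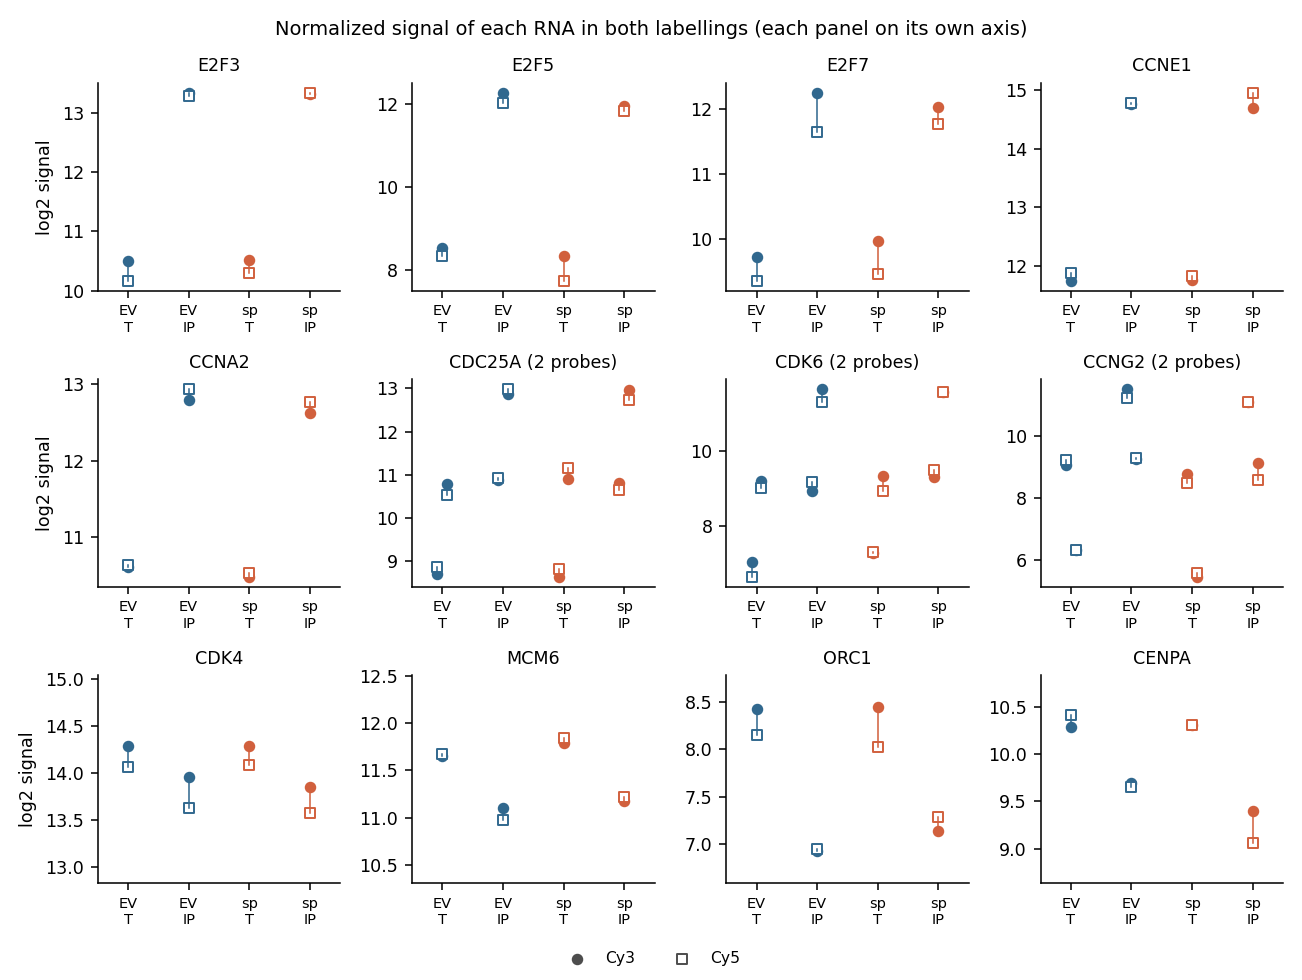
Log2 normalized signal of 12 genes in EV and miR-155-sp (sp) total (T) and Ago2-IP (IP) RNA, with filled circles for Cy3 and open squares for Cy5, a line joining the labellings of 1 RNA, and an axis of its own for each panel. For E2F3, E2F5, E2F7, CCNE1 and CCNA2 every IP value is above every total value, while for CDK4, MCM6, ORC1 and CENPA every IP value is below every total value.

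The kinases that the cyclins bind mostly lacked the enrichment of their partners. CDK6, a G1 kinase partner of the D cyclins, was the exception, with 2.38 in EV and 2.44 in miR-155-sp cells on its brighter probe. Its other probe, whose total RNA was not above background in Cy5, had 2.22 in EV cells but was under the limit with normexp (0.83 and 0.66). The brighter probe read 9.33 and 8.91 in total and 11.57 and 11.56 in Ago2-IP RNA of the miR-155-sp population. CDK4, which does the same work as CDK6 in G1, read 14.29 and 14.06 in EV total and 13.95 and 13.63 in EV Ago2-IP RNA, a log2 IP/T of -0.39. CDK2, the partner of cyclins E and A, stood at -0.63, and CDK1, the partner of cyclins A and B, at 0.61. The 10 probes of G1 cyclins and their kinases thus spanned -0.63 to 2.95 with a median of 0.97, and the 4 probes of S to M cyclins and CDK1 had a median of 1.21.

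CDK16, a kinase of the PCTAIRE group, was the other enriched CDK, with 1.93 in EV and 2.14 in miR-155-sp cells. None of the 11 probes of the kinases of transcription (CDK7, CDK8, CDK9, CDK10, CDK11B, CDK13 and CDK19) reached the limit in EV cells, and their median was -0.23. CDK8, a kinase of the Mediator complex, was their highest at 0.88. CDK11B and CDK10 were their lowest, with -0.85, -1.01 and -1.41 on the CDK11B probes and -0.93 and -1.27 on the CDK10 probes. CDK11B has a near-identical neighbour, CDK11A, and probes may read both, so its values are uncertain as to the gene.

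CDC25A, the phosphatase that activates CDK2 for S phase entry, was enriched on both probes. Probe A_24_P397107 read 10.78 and 10.53 in EV total against 12.87 and 12.99 in EV Ago2-IP RNA, a ratio of 4.86, and probe A_23_P121423 read 8.70 and 8.86 against 10.88 and 10.91, a ratio of 4.33. The probes agreed in EV cells to within 0.16 on the log2 scale. CDC25B, a phosphatase of mitotic entry, stood at 0.06.

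CDC37L1, named for its likeness to the HSP90 co-chaperone CDC37, had the highest IP/T ratio of all member probes in the main processing. With normexp its log2 IP/T was 2.52 and 2.57, below E2F5 (2.83 and 2.93) and CCNE1 (2.81 and 2.87). It read 7.85 and 7.98 in EV total and 11.84 and 11.59 in EV Ago2-IP RNA, a ratio of 14.0, with 16.3 in miR-155-sp cells, and it ranked 163 of 16060 by its EV ratio. Of the anaphase-promoting complex and its activator, which mark mitotic proteins for destruction, CDC27 had 1.16 and CDC23 had 0.58, while CDC16 had -0.20, CDC20 -0.58 and CDC26 -0.61. The 12 probes of CDC42 and its effectors held 0 enriched probes in EV cells, with a median of -0.04. The lowest member of all was among them, CDC42EP5 at -1.85, with 15.37 and 15.59 in EV total and 13.34 and 13.91 in EV Ago2-IP RNA. It was the only probe of the 13 with a ratio of 0.5 or less that kept it in each of 8 other settings.

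The genes that license and fire replication origins, listed here together with MCM8, gave a narrower picture. None of the 20 probes of MCM2 to MCM8, MCM10, ORC1 to ORC6, CDC6, CDC7 and CDC45 was enriched in EV cells, and their median was -0.27. The subunits of the MCM helicase stood at 0.19 for MCM2, 0.17 for MCM7, 0.10 for MCM3, -0.05 for MCM5, -0.63 for MCM6 and -0.96 for MCM4. MCM7, for example, read 15.54 and 15.21 in EV total and 15.68 and 15.42 in EV Ago2-IP RNA, and MCM6 read 11.65 and 11.67 against 11.10 and 10.97. The IP and total values of MCM7 lay closer than its labellings, and those of MCM6 were apart by more than its labellings. MCM10, which helps to start replication forks, had -0.65 and -0.79.

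ORC1, the subunit whose level varies over the cell cycle, was the lowest ORC gene in the main processing, at -1.35. It read 8.43 and 8.15 in EV total and 6.92 and 6.95 in EV Ago2-IP RNA. With normexp ORC1 had -0.43 and -0.25, and the lower ORC6 probe had -0.48 and -0.30. The other subunits had -0.02 for ORC3, -0.23 for ORC4, -0.49 for ORC5, -0.56 for ORC2, and -0.32 and -1.15 for the probes of ORC6. CDC6, which loads the helicase with ORC, had -0.65, and CDC45, a partner of the active helicase, 0.16. CDC7, the kinase that fires origins, was highest of this group at 0.83 in EV and passed the limit in miR-155-sp cells at 1.23. The single enriched MCM probe was that of MCM3AP-AS1 (1.67), an antisense transcript that overlaps MCM3AP (-0.53) and codes for no helicase subunit. Whether its probe reads 1 strand only was not checked.

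The E2F and MCM genes are joined by a DNA motif, and their promoters are shown for that reason. RefSeq promoters (250 bases before to 50 after the gene start, GRCh38.p14) were found for 94 of the 106 genes (88.7%). An E2F motif, here TTTGGCGC, TTTCCCGC, TTTGCCGC or TTTCGCGC on either strand, was found in 20 of 94 (21.3%) against 3.33% of 27305 RefSeq promoters and 6.13% of the 7271 promoters of genes in the table. By family it was in 5 of 8 MCM, 3 of 6 E2F, 5 of 21 CDC, 4 of 20 CDK, 2 of 12 CENP, 1 of 6 ORC, 0 of 7 cyclin and 0 of 14 KIF promoters. CCAAT, a motif of many mitotic promoters that overlapped an E2F motif in 1 member promoter, was in 52 of 94 (55.3%) against 35.7% of all. The E2F motif was in 2 of 17 genes with a mean EV ratio of at least 2 and in 18 of 77 below it, a difference that was not tested. The lines give 30 bases around the motif, in capitals, in the direction of the gene. They lie upstream of the start at chr2:135876577-135876606 (minus strand) for MCM6, chr6:52284898-52284927 (minus) for MCM3, chr20:33686400-33686429 (minus) for E2F1, chr6:20401815-20401844 (plus) for E2F3 and chr3:48188443-48188472 (minus) for CDC25A.
MCM6: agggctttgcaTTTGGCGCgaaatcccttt
MCM3: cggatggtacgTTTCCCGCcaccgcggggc
E2F1: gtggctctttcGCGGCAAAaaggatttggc
E2F3: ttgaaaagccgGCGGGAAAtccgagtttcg
CDC25A: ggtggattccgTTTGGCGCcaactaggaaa

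Of the kinesins, the 6 probes of the motors listed here as mitotic held no enriched member in EV cells. They stood at 0.82 for KIF23 and 0.55 for KIF11, which act in cytokinesis and in spindle pole separation, 0.10 for KIF22, -0.39 for KIF2C, -0.48 for KIF20A and -0.83 for KIF4A. KIF11 read 8.81 and 9.01 in EV total and 9.52 and 9.40 in EV Ago2-IP RNA. All 5 enriched kinesin probes were of motors outside this list: 1.28, 1.19 and 1.04 on the probes of KIF3B and 1.01 for KIF3A, which form a motor of cilia and transport, and 1.10 for KIF2A, which shortens microtubule ends. The list held KIF2C but not KIF2A, so where KIF2A is placed decides whether the mitotic motors hold an enriched probe. None of the 5 probes stayed at a ratio of 2 or above in each of 8 other settings. With normexp KIF3A had 0.37 and 0.33, KIF2A 0.86 and 1.05, and the highest KIF3B probe 0.86 and 1.02. KIF1B, KIF3C and KIF6 lay at the other end, with -1.58, -1.40 and -1.39. KIF1B was the only gene of the 25 with several probes whose ratios were apart by more than 2-fold, its other probe standing at -0.47. The lower KIF1B probe was not above background in Cy5 in the Ago2-IP RNA of either population. With normexp it had -0.80 and -0.52, while KIF3C had -0.79 and -0.61 and KIF6 had -0.68 and -0.45.

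The centromere proteins had the lowest family median. CENPA, the histone H3 variant of centromeres, read 10.29 and 10.42 in EV total and 9.70 and 9.66 in EV Ago2-IP RNA, a log2 IP/T of -0.68. CENPH and CENPM, subunits of the inner kinetochore, had -1.29 and -1.14. CENPE and CENPF, large proteins of the outer kinetochore, stood above 0 at 0.39 and 0.57. CENPQ, also of the inner kinetochore, was alone in passing the limit, with 7.73 and 7.20 in EV total and 10.32 and 9.93 in EV Ago2-IP RNA, a ratio of 6.32 in EV and 5.34 in miR-155-sp cells.

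Genes of the pathway outside the family names were taken from a list of cell cycle regulators, of which 63 genes (76 probes) were in the table. Of these probes 12 (15.8%) were enriched in EV cells, close to the 15.1% of all probes. At 0.5 or less were 4 (5.26%), against 12.9% of all probes. CDK inhibitors gave 4 of the enriched probes, pocket proteins 3 and checkpoint kinases 2. Among CDK inhibitors, CDKN1B had 4.22 and 2.74 and CDKN1A 1.46 and 1.45, while CDKN2A had -1.18, CDKN2D -0.92, CDKN3 -0.50 and CDKN2C -0.10. RB1, the retinoblastoma protein that holds E2F, had 2.26 and 1.98, and its relative RBL2 had 1.16. TFDP1, the DNA-binding partner of E2F, had 0.02 and -0.01. Of the kinases that delay mitosis or answer DNA damage, WEE1 had 4.14 and ATR 1.62, with CHEK1 at 0.68.

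Of 24 probes of other replication genes 3 were enriched, those of DBF4 (2.47), the activator of CDC7, GINS2 (1.92) and RFC3 (1.29), and the median was -0.11. None of the 33 probes of mitosis and spindle checkpoint genes was enriched, with a median of -0.25.

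**Figure D3:**
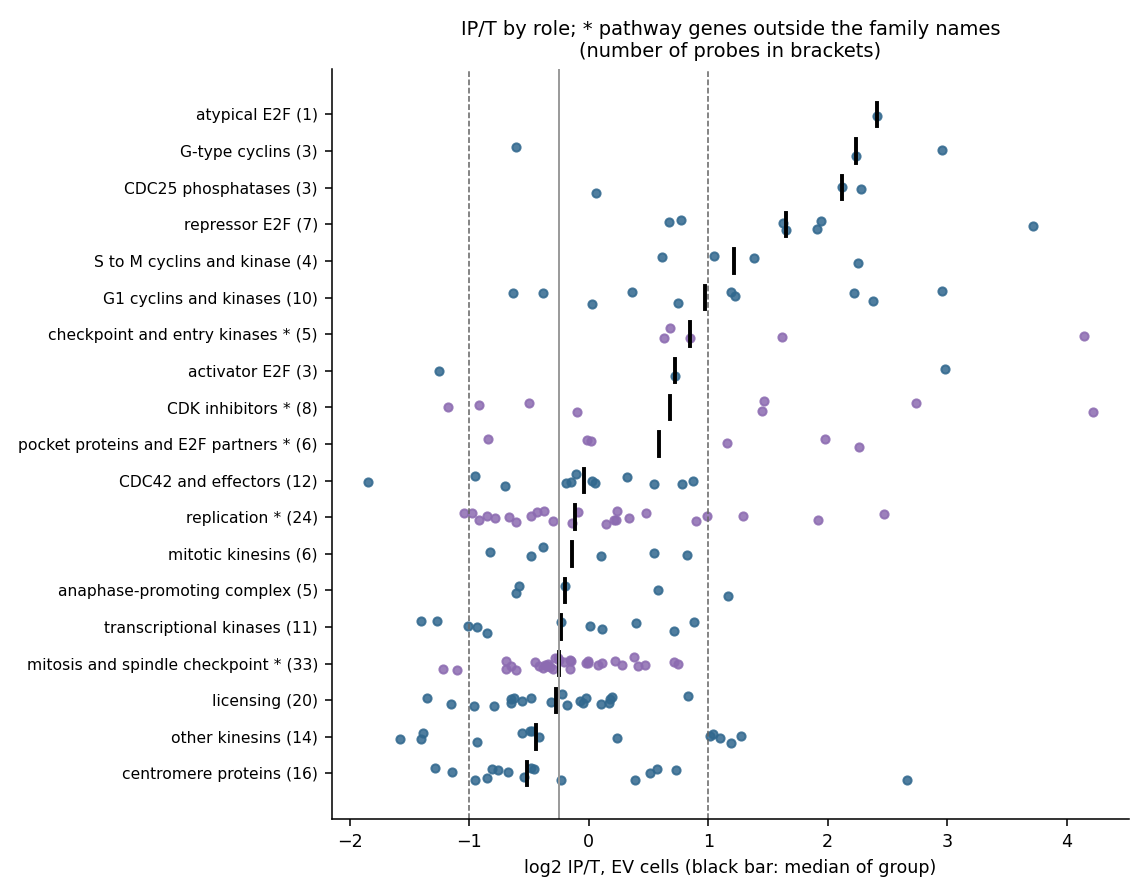
Log2 IP/T in EV cells (horizontal axis) for member probes grouped by role and for listed pathway genes outside the family names (marked with an asterisk), with black bars at group medians, a grey line at the median of all probes and dashed lines at IP/T of 0.5 and 2. The licensing group (median -0.27) and the mitosis group (-0.25) show 0 probes past 2, while the repressor E2F group has a median of 1.65.

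With the sponge the picture of enrichment was much the same. In miR-155-sp cells 30 member probes (21.3%), in 22 genes, had an IP/T ratio of at least 2, against 16.0% of all probes, and 13 (9.22%) had 0.5 or less, against 13.9%. In both populations the ratio was at least 2 for 25 probes, 14.0% of all probes meeting this. Past the limit in EV alone were CCNB2, KIF3A, KIF2A and 1 KIF3B probe, and in miR-155-sp cells alone CDC7, CDK14, CDK3, KIF23 and 1 E2F4 probe. These 9 probes all lay between 0.58 and 1.23 in both populations, near the limit of 1.

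The change with the sponge is the log2 IP/T of miR-155-sp minus that of EV cells. Its median absolute size over the members was 0.18. The median absolute difference between the dye orientations of 1 population was larger, 0.34 in the EV and 0.33 in the miR-155-sp population. It also holds dye effects of a probe that cancel in the mean of both orientations, so it does not measure the spread of the change. A ratio higher by 1.5-fold or more, with the same sign in both orientations, was seen for 2 members (2.83% of all probes), and a lower one for 1 member (2.05% of all probes). These counts came from few probes, and none of the 8 changes past 1.5-fold given here and below stayed past it in each of 8 other settings.

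The higher ratios were those of MCM8 and CDK14. MCM8, a helicase of recombination related to the MCM ring, read 9.88 and 9.98 in EV total and 9.86 and 9.63 in EV Ago2-IP RNA on probe A_23_P68547, against 9.74 and 9.49 and 10.01 and 10.05 in miR-155-sp cells. Its ratio was higher by 0.60 on this probe and by 0.44 on the other, with total RNA lower by a log2 difference of -0.32 and -0.40. CDK14, a kinase of the PFTAIRE group that binds cyclin Y, had differences of 0.66 and 0.43 on its probes, with total RNA at -0.56 and -0.30. Ago2-IP RNA of MCM8 differed by 0.28 and 0.04 and that of CDK14 by 0.10 and 0.13. On the CDK14 probes and the other MCM8 probe, total RNA thus held the larger part of the difference. On MCM8 probe A_23_P68547 the parts were close to equal, with -0.32 in total and 0.28 in Ago2-IP RNA.

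CDC42SE1, a small effector of CDC42, had the lower ratio. Its probe A_23_P320887 read 8.72 and 8.51 in EV total and 8.49 and 8.44 in EV Ago2-IP RNA, then 8.50 and 8.71 in total and 7.84 and 7.62 in Ago2-IP RNA of miR-155-sp cells. On this probe the IP values were lower with the sponge in both dyes while the total values overlapped. The 3 CDC42SE1 probes gave IP/T differences of -0.72, -0.49 and -0.41. The probe at -0.49 was not above background in Cy5 in miR-155-sp Ago2-IP RNA. Its Ago2-IP RNA differed by -0.96 in Cy5 and by 0.01 in Cy3. On the probe at -0.41 total RNA differed by 0.28 and Ago2-IP RNA by -0.13, so the probes disagreed on the fraction that differed. CDC25A gave -0.46 on its brighter probe and -0.11 on the other, so the probes disagreed on the size of its difference. ORC3 was higher by 0.53, and the other ORC genes had differences of at most 0.33.

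**Figure D4:**
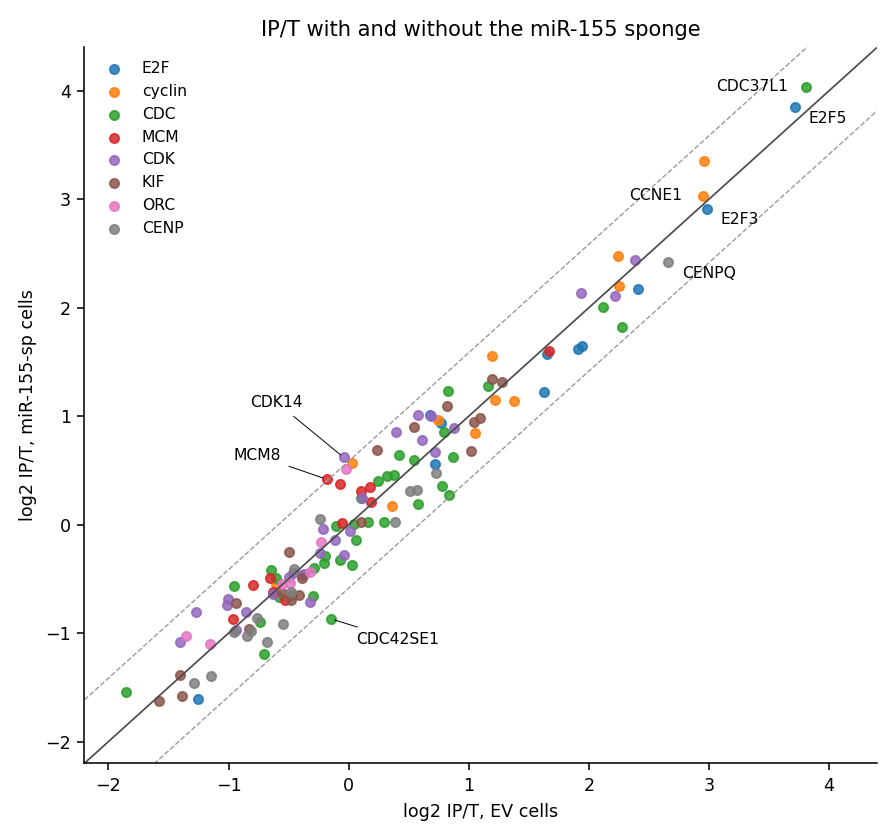
Log2 IP/T of each member probe in miR-155-sp cells (vertical axis) against EV cells (horizontal axis), coloured by family, with a solid line of equal ratios and dashed lines 1.5-fold to either side. CDC37L1 (3.81 and 4.03) and E2F5 (3.72 and 3.85) lie at the top near the line, and MCM8, CDK14 and CDC42SE1 lie at or past the dashed lines.

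By family, the sign of the difference was most uniform for the centromere proteins, though the sizes were small. Of the 16 CENP probes 12 had a lower ratio with the sponge in both orientations, where 30.4% of all probes and 52 members (36.9%) did, with a family median of -0.19. CENPA, at -0.41, read 9.39 and 9.06 in Ago2-IP RNA of miR-155-sp cells against 9.70 and 9.66 in EV cells, and CENPB and CENPE had -0.37 and -0.36. CENPB was not above background in Cy5 in miR-155-sp Ago2-IP RNA. Total RNA of CENPE differed by 0.31 and its Ago2-IP RNA by -0.05. In both labellings total RNA was higher for 10 of the 16 CENP probes (5244 of all 16060 probes). Ago2-IP RNA was lower in both for 6 (5330 of all probes). Of the 12 MCM probes 6 had a higher ratio in both orientations, where 31.1% of all probes and 38 members (27.0%) did, with a family median of 0.13. The share was similar in other families, with 12 of 28 CDK, 3 of 7 ORC and 5 of 12 cyclin probes. Lower in both orientations were 1 MCM, 5 CDK, 2 ORC and 5 cyclin probes. Over the 12 alternatives the CENP median ran from -0.24 to -0.08 and the MCM median from 0.05 to 0.24. E2F, the most enriched family, had 6 of 11 probes lower in both orientations and a median of -0.16. Probes of a gene and genes of a family are not replicates of the sponge, so these counts describe 1 pair of populations.

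Total RNA was lower by 1.5-fold or more with the sponge for 2 members, both G-type cyclins (1.79% of all probes), and higher for 0 members (0.535% of all probes). CCNG1 differed in total RNA by -0.45 in Cy3 and -0.83 in Cy5, a mean of -0.64, and in Ago2-IP RNA by -0.58. CCNG2 differed in total RNA by -0.51 on its brighter probe, with 9.06 and 9.21 against 8.77 and 8.48, and by -0.82 on its dimmer probe. For both genes the total values of the populations did not overlap, and since the arrays measured bulk RNA, fewer cells with the transcript and less of it per cell cannot be told apart. The difference on the dim CCNG2 probe changed sign (to 0.09 and 0.04) when another background correction was used.

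Ago2-IP RNA was higher by 1.5-fold or more for 1 member (1.38% of all probes), a CDK9 probe, and lower for 2 members (1.07% of all probes), CDC42SE1 and CDC40. CDK9 is the kinase of transcription elongation, and this probe (A_23_P158083) read 7.19 and 7.32 in EV and 7.39 and 8.38 in miR-155-sp Ago2-IP RNA. In total RNA it read 7.57 and 6.92 in EV and 7.46 and 8.43 in miR-155-sp cells, so its IP/T differed by -0.07 only. The EV total value in Cy5 was not above background. The dyes of this probe were apart by nearly 1 in both fractions of the miR-155-sp population. The other CDK9 probe gave a difference of -0.02 in Ago2-IP RNA. CDC40, a splicing factor, gave -0.64 on this probe and -0.53, -0.31 and -0.03 on its others. The CDC40 probes at -0.64 and -0.53 were not above background in Cy5 in miR-155-sp Ago2-IP RNA. They gave -0.94 and -0.91 in Cy5 against -0.34 and -0.15 in Cy3. Those at -0.31 and -0.03 were above background in all 8 channels. MCM4 had some of the highest differences in both fractions, with 0.39 in total and 0.49 in Ago2-IP RNA. MCM10 had 0.35 and 0.51 on 1 probe and 0.08 and 0.31 on the other, so its probes disagreed on total RNA.

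**Figure D5:**
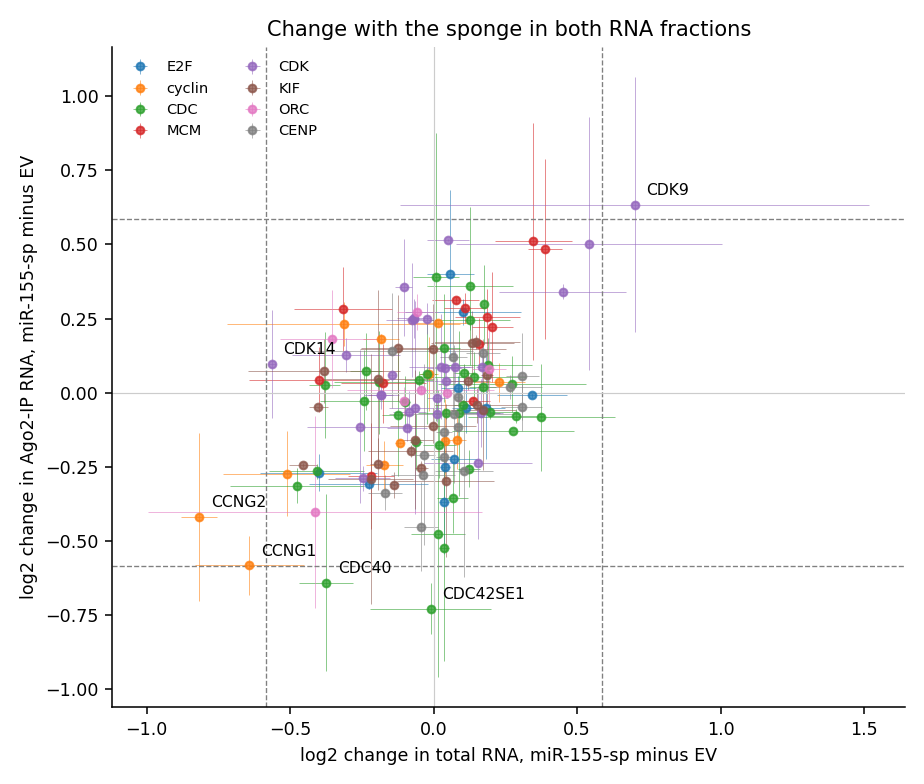
Log2 difference between miR-155-sp and EV cells in Ago2-IP RNA (vertical axis) against total RNA (horizontal axis) for each member probe, coloured by family, with thin bars spanning the Cy3 and Cy5 labellings and dashed lines at 1.5-fold. CCNG1 (-0.64 and -0.58) and the dimmer CCNG2 probe (-0.82 and -0.42) lie at lower left, and the bars of many probes cross 0.

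The array also carried rule genes that these comparisons could not use. It held 217 probes of 148 rule genes, and 76 probes were not in the deposited table. Of the 76, 29 were above background in 0 channels, 13 in 1 to 3 channels, 26 in 4 to 5 and 8 in 6 or more. For 42 genes no probe was a member, among them CCND1, CCNE2, CDC25C, E2F8, CENPI, KIF14, KIF15 and KIF5B, and for 23 of the 42 every probe was above background in fewer than 4 channels. Of the members 121 were above background in all 8 channels, and the other 20 were below it in 1 labelling of a sample but in no sample in both. Among the 25 genes with several member probes, EV ratios spanned less than 1.5-fold in 19, and the median span was 0.32 on the log2 scale.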

How the data were processed

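Total and Ago2-IP RNA of EV and miR-155-sp KM-H2 cells was measured on 4 two-colour Agilent 44k arrays of 1 slide, each RNA in Cy3 and in Cy5. The deposited scanner files hold an intensity per spot and dye, background-subtracted and dye-normalized by Agilent Feature Extraction (10.7.3.1 per the file headers, 10.5.1.1 in the submitters' processing notes). The deposited value table holds log2 values that the authors quantile-normalized and limited to probes detected in most samples, with labellings within 2-fold. Here each sample's own channel was used. Control spots and outlier spots (74 to 100 per channel) were dropped, log2 intensities of spots of 1 probe were averaged, and 40981 of 41000 probes were quantile-normalized over 8 channels. Results cover 16060 of the 16065 probes of the table, for which the median absolute difference from the deposited log2 values was 0.0006. Symbols came from a match of the probes' accessions to RefSeq, and the array design is on hg18, so no probe coordinates are given.

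Each RNA is 1 sample, the labellings were averaged, and no test was made. Intensities that were quantile-normalized give relative ratios only. A probe was called enriched at IP/T of 2 or more, and different with the sponge at 1.5-fold with the same sign in both labellings. Array number limits the precision. Genes were named if they were on a list of well-known cell cycle genes, were among the 10 highest or 10 lowest in IP/T, among the 5 largest differences in IP/T or the 3 largest in total or IP RNA in each direction, or had disagreeing probes. Others were named after their values were seen, as the remaining enriched or changed members. The members and lists were chosen with earlier results of these data known. A marker gene on these lists is not reported here. Python (3.11.15), pandas (2.3.3) and numpy (2.4.6) were used, and scripts were tested on simulated data. The alternatives were the deposited values, a common median, normexp background correction with quantile or loess and Aquantile normalization, the probe filters, family names alone, gene means, each dye orientation and each labelling alone.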

Additional observations from a re-analysis of the deposited data

Results flagged for a closer look

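On 1 probe each of MCM8 and CDK14 the IP/T ratio was below 1 in both dye orientations for EV and above 1 in both for miR-155-sp. The log2 IP/T of MCM8 (probe A_23_P68547) was -0.18 in EV and 0.42 in miR-155-sp cells, a difference of 0.60. In CDK14 (probe A_24_P29733) it was -0.04 and 0.62, a difference of 0.66. The other CDK14 probe was above 1 in both orientations already in EV cells (log2 IP/T 0.46 and 0.69), and the other MCM8 probe was split for EV (-0.41 and 0.27) and likewise with the sponge (-0.10 and 0.85). Neither difference was tested, since each population is 1 sample.

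Probes of rule genes outside the deposited table also gave signal in 6 or more channels. In EV cells their log2 IP/T was 2.15 for CDC25C, a phosphatase of mitotic entry (1.90 in miR-155-sp cells), and 1.84 for E2F8, an atypical E2F (1.74). KIF5B, a motor of cargo transport, had 0.87 (2.16 with the sponge), and MCM3AP-AS1 had 0.74 (1.56). The EV total signal was only 5.72 for E2F8 and 6.47 for KIF5B. The dimmer CDK6 probe, not above background in Cy5, had 6.83, so the E2F8 and KIF5B ratios rest on very dim total RNA. CDC42SE2 had 0.83 (1.24), KIF11 had 0.0344 (-0.68), KIF15, a spindle motor, had -0.41 (-0.53), and CDK5R2, an activator of CDK5, had -0.52 (-0.57). For CDC42SE2, KIF11, KIF15 and CDK5R2 some of these means joined dye orientations of opposite sign. In EV cells the orientations gave -0.36 and 0.43 for KIF11 and 0.84 and -1.89 for CDK5R2. In miR-155-sp cells they gave -0.02 and 2.50 for CDC42SE2, -1.91 and 0.85 for KIF15 and 0.51 and -1.66 for CDK5R2.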

How the results depend on the processing

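No paired analysis was possible because the replicate numbers in the labels are the dyes of 1 RNA. Over 417 results and 3484 alternative values, 2854 stayed within the spread of the labellings (for counts, within 1.5 times), 628 moved and 2 reversed, the 2 being the total RNA of the dimmer CCNG2 probe (0.0873 and 0.0398 under normexp). A setting with a single labelling needs the fold in that labelling only. The cause of the shifts was not tested.

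With a common median, 4 members had a 1.5-fold higher IP/T (main value 2). With normexp and quantile normalization, 2 probes stayed at 0.5 or less in EV (13) and 4 in miR-155-sp cells (13), 17 were enriched in miR-155-sp cells (30), and 0 differed by 1.5-fold in any class but total RNA higher, which was 0 in the main. Medians were -0.14 for KIF in EV, and -0.27 for ORC, -0.00578 for KIF and -0.41 for CENP in miR-155-sp cells, with a cyclin difference of -0.12. With normexp and loess, 1 probe was at 0.5 or less in EV and 1 in miR-155-sp cells, while the same counts of differences were 0. Medians were -0.0762 for ORC, -0.0378 for KIF and -0.19 for CENP in EV, -0.10 for ORC, 0.13 for KIF and -0.17 for CENP in miR-155-sp cells, and -0.0927 for the cyclin difference. With probes above background in all 8 channels, 8 and 7 probes were at 0.5 or less in EV and miR-155-sp cells, 1 was lower in total, 0 higher in IP and 1 lower in IP RNA, with medians of 0.10 for KIF in EV and -0.29 for ORC and 0.0214 for KIF in miR-155-sp cells. With 4 channels and no agreement filter, 7 were higher and 6 lower in IP/T, 2 and 4 in total, 2 and 5 in IP RNA, and the CENP median in miR-155-sp cells was -0.18. With family names alone, 0 were lower in IP/T and 1 in IP RNA, and the CDK median in miR-155-sp cells was 0.11. With gene means, 0 were higher or lower in IP/T or in IP RNA. With IP in Cy5 alone, 6 were higher and 9 lower in IP/T, 1 lower in total, and 7 higher and 9 lower in IP RNA. With IP in Cy3 alone, 7 were higher and 5 lower in IP/T, 4 higher and 9 lower in total and 0 higher in IP RNA, with an MCM median of -0.10 in miR-155-sp cells and an ORC difference of 0.29. Leaving out 1 labelling of each RNA gave 2 to 13 higher and 0 to 10 lower in IP/T, 0 to 4 higher and 1 to 9 lower in total, and 0 to 7 higher and 2 to 9 lower in IP RNA. Median differences then ran from -0.06 to 0.15 for cyclins, 0.03 to 0.26 for ORC and -0.169 to 0.0827 for KIF.

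Of the 13 probes at 0.5 or less in EV cells, 8 were above background in all 8 channels.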
